A study of Arabidopsis thaliana with 4 samples.

Results

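ZW9 (AT1G58270) and AT1G65370 are genes of Arabidopsis thaliana that encode proteins of the TRAF-like family with a MATH domain. They were selected on their array signals, as TRAF-like MATH genes that were lower in the Wassilewskija (Ws) ecotype than in Columbia, so their ecotype difference is given as a description, with no test. Each has 1 probe set, 256021 for ZW9 and 264166 for AT1G65370, and these are 2 of the 13513 probe sets that the annotation pairs with a single gene, which stand for 13350 genes.

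The study measured transcripts in above-ground tissue of an fnr1 mutant and of wild type in the ecotypes Columbia and Ws. The 4 groups, wild type Columbia, fnr1 Columbia, wild type Ws and fnr1 Ws, were represented by 1 Affymetrix array each. All plants were 31 days old, were grown in soil of pH 6.5 at 21 °C with 8 h of light and 16 h of dark, and were harvested 4 h into the light period. The labels name neither the mutant alleles nor the number of plants behind an array. The product of FNR1 is an oxidoreductase of leaf chloroplasts, which uses electrons of ferredoxin to reduce NADP+. The annotation lists 0 probe sets under the name FNR1, so the genotype labels were not checked against that gene here.

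The MATH domain is the fold through which TRAF proteins of animals bind their partners. Plant genomes hold many genes that encode little more than MATH domains, besides smaller groups that join the domain to another one. In the BPM proteins a MATH domain holds a substrate and a BTB domain binds the CUL3 scaffold of a ubiquitin ligase. SINAT proteins are RING ubiquitin ligases whose substrate-binding part has a TRAF-like fold. No role is given here for ZW9 or AT1G65370 beyond membership of the family.

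The arrays stood at different levels as deposited, with a median signal of 22.1 in wild type Columbia and 27.5 to 28.9 on the other 3, so differences are given after each array was scaled to a common median. They are log2 differences of scaled signal plus 5.78 (a pseudocount set at the 25th percentile of the scaled signals), which understates the change of dim probe sets. RCA, the Rubisco activase of green tissue, had a signal of 6132 to 7768 over the 4 arrays and was the 1 of 10 leaf markers listed by name. PYK10, a beta-glucosidase abundant in roots, had 73.7 to 138, while the root-hair expansin EXPA7 had 1.04 to 9.27 and the cysteine proteinase CP1, also on the root list, had 7.36 to 14.9. No flower or seed marker was listed by name in the annotation, which names a single gene for 13513 of 22746 probe sets, and 3 of the 8 root markers were listed. PYK10 differed between fnr1 and wild type by 0.25 in Columbia and by -0.37 in Ws on the log2 scale used below, and its part in the results was not tested. The signal of whole above-ground tissue cannot tell fewer cells of a type from less RNA per cell.

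ZW9 was bright in Columbia and dim in Ws. In Columbia its deposited signal was 106 in wild type and 180 in fnr1, and in Ws it was 8.73 in wild type and 10.7 in fnr1. These signals stood at percentiles 81.6 and 86.0 of all probe sets on the wild type and fnr1 Columbia arrays, and at 29.9 and 34.5 on the Ws arrays. Within each ecotype the fnr1 array had the higher signal.

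AT1G65370 had the same arrangement. Its deposited Columbia signals were 76.1 (wild type) and 167 (fnr1), and its Ws signals were 5.07 (wild type) and 8.13 (fnr1). The percentiles were 75.6 and 85.1 on the Columbia arrays and 22.2 and 29.8 on the Ws arrays, in the same order of genotypes. Its scaled signal in wild type Ws, 4.65, lay below the pseudocount, so the level there is known only as a low one and any difference taken from it depends on the pseudocount.

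**Figure D1:**
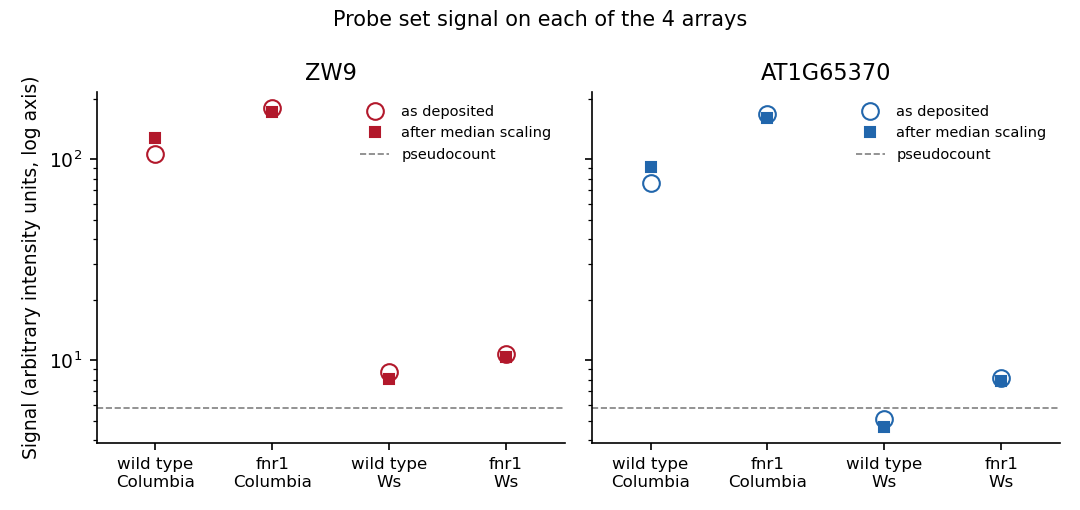
Signal of the ZW9 (left) and AT1G65370 (right) probe sets on the 4 arrays, in arbitrary intensity units on a log axis, with 1 array per point; open circles are signals as deposited, filled squares are signals after median scaling, and the dashed line is the pseudocount of 5.78. Both probe sets lie far higher on the Columbia arrays than on the Ws arrays, and scaling raises the wild type Columbia point.

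The ecotype difference is given for each genotype as a description of the values that selected the genes. In ZW9 the scaled Columbia signal was 15.9 times the Ws signal in wild type and 16.7 times in fnr1, with log2 differences of Ws minus Columbia of -3.27 and -3.47. In AT1G65370 the Columbia signal was at least 15.8-fold higher in wild type, with the Ws signal set to the pseudocount, and 20.4 times higher in fnr1, with log2 differences of -3.22 and -3.61. The fitted ecotype differences were -3.37 for ZW9 and -3.41 for AT1G65370, the 19th and 18th lowest of the 13648 probe sets bright enough to test. In that fit limma called 5.25% of probe sets lower in Ws, and nothing is read from this share since the contrast chose the genes. These are folds of array signals, and the match of the probes to the Ws sequence was not tested.

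Within Columbia both genes had a higher signal in fnr1 than in wild type. After median scaling the ZW9 signal went from 127 in wild type to 172 in fnr1, a ratio of 1.36 and a log2 difference of 0.42. That of AT1G65370 went from 91.4 to 160.5, a ratio of 1.75 and a log2 difference of 0.77. Each value sets 1 array against 1, so the differences have no replicate check and were not tested. The median log2 difference of all tested probe sets in Columbia was -0.02, and 90% of them lay between -0.55 and 0.55. A difference at least as high as that of ZW9 was seen in 1285 of 13648 probe sets (9.42%), and one at least as high as that of AT1G65370 in 237 (1.74%). Of the members, AT1G65370 was at least 1.5-fold higher in fnr1, as were 4.25% of all tested probe sets, and ZW9 was not.

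These sizes rest on the scale of the dim wild type Columbia array. On the deposited scale the log2 difference in Columbia was 0.73 for ZW9 and 1.08 for AT1G65370, but there the median of all tested probe sets was 0.28. The deposited signals themselves gave ratios of 1.70 and 2.20.

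In Ws the fnr1 array also had the higher value of each gene, at low signal. The scaled ZW9 signal was 8.01 in wild type and 10.3 in fnr1, a log2 difference of 0.22, and 17.3% of tested probe sets had a difference at least as high there. The AT1G65370 signal was 4.65 and 7.86, the first below the pseudocount, and its log2 difference of 0.39 is therefore not a measured size. The size of the Ws differences depended on the pseudocount. That of ZW9 was 0.33 with a pseudocount of 1 and 0.13 with 16, and that of AT1G65370 was 0.65 and 0.21. A value higher in fnr1 in both ecotypes, of any size, was seen in 21.9% of all tested probe sets. Whether the genotype difference was the same size in both ecotypes could not be tested with 1 array per combination.

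The order of the 4 values was the same for both genes, from wild type Ws over fnr1 Ws and wild type Columbia to fnr1 Columbia. The moderated log2 SD of a difference between 2 arrays was 0.30 for ZW9 and 0.32 for AT1G65370. This SD comes mostly from other probe sets of like signal, with 15.7 prior degrees of freedom against the 1 of the gene itself. With 1 array per combination, it is taken from how far genotype differences disagree between the ecotypes, not from repeat arrays of a group. The step between the Columbia arrays was 1.44 times that SD for ZW9 and 2.41 times for AT1G65370. The step between the Ws arrays was 0.75 times the SD for ZW9, so neither step of ZW9 settles the order of the genotypes. The Ws step of AT1G65370 rests on the value below the pseudocount.

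The comparison of genotypes over both ecotypes asked whether the mutation moved these transcripts, with the ecotypes as the replicates. Neither gene passed the test. ZW9 was fitted at a log2 difference of 0.32 ± 0.21 for fnr1 minus wild type (SE, 2 arrays against 2, limma adjusted p = 0.83). AT1G65370 was fitted at 0.58 ± 0.23 (limma adjusted p = 0.657, unadjusted p = 0.0207), a fit that includes the wild type Ws value below the pseudocount. Limma called 0.183% of all 13648 probe sets in this comparison, 22 higher and 3 lower in fnr1, while 6.67% had an unadjusted p under 0.05.

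**Figure D2:**
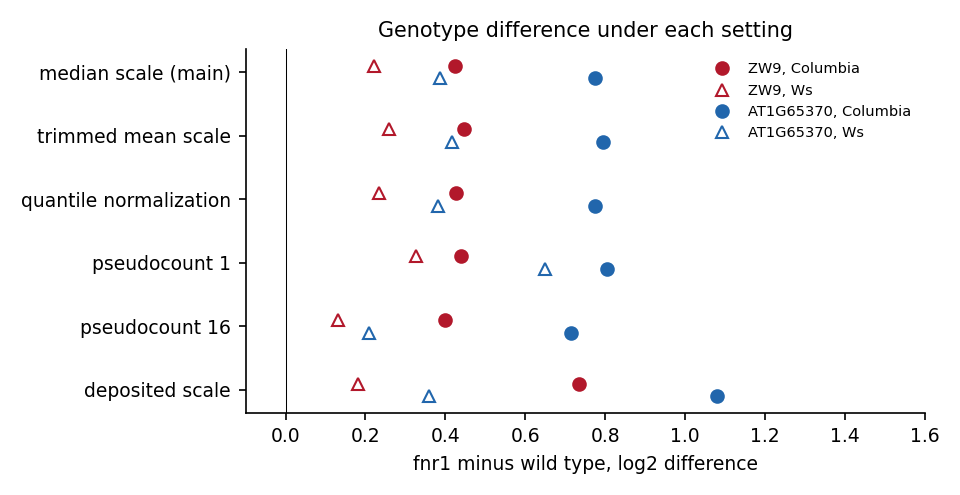
Log2 difference of fnr1 minus wild type (x axis) for ZW9 (red) and AT1G65370 (blue) under each scaling and pseudocount (rows), with 1 array against 1 per point; filled circles are Columbia and open triangles Ws. All points lie above 0, and the deposited scale, in which the wild type Columbia array is dimmer, gives the highest Columbia values, 0.73 and 1.08.

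The rest of the family was described next, from a list of 76 genes drawn from general knowledge of the Arabidopsis annotation, the members included. A probe set with a single gene was listed for 26 of the 76, and 13 of these were bright enough to test, ZW9 and AT1G65370 among them, which passed that filter through their Columbia signals. The other 13 were all genes of the group with MATH domains alone, with deposited signals from 0.22 to 30.5. The 11 tested genes other than the members were 6 with MATH domains alone, the BTB gene BPM3 and 4 SINAT genes. No probe set was listed by name for the other BPM genes, the MATH deubiquitinases or the CUL3 and RBX1 genes of the ligase.

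Another MATH gene, AT3G28220, had a lower signal in Ws, and the match of its probes to the Ws sequence was not tested. The deposited signals in Columbia were 111 in wild type and 169 in fnr1, and those in Ws were 28.3 in wild type and 30.5 in fnr1. As in ZW9 and AT1G65370 the higher signal of each ecotype was that of fnr1, an order seen in 21.9% of all tested probe sets after scaling. The fitted ecotype difference was -2.20 ± 0.19 (SE, 2 arrays against 2, limma adjusted p = 3.81e-07), and the adjusted p under other settings was 9.01e-09 to 0.00282. Its genotype difference was 0.27 in Columbia and 0.15 in Ws, and 0.21 in the fit (limma adjusted p = 0.886).

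AT3G28220 was the 1 call between ecotypes among the 11 tested family genes, beside 8.32% of all tested probe sets called by limma in either direction. The fitted ecotype differences of the 11 genes had a median of 0.11, against 0.04 over all tested probe sets. AT4G00780, the brightest of them, had deposited signals of 492 (wild type) and 742 (fnr1) in Columbia and of 541 (wild type) and 550 (fnr1) in Ws, and its ecotype difference of -0.33 was not called (limma adjusted p = 0.2). AT4G01390 had -0.42 (limma adjusted p = 0.407). AT2G41980 of the SINAT list had the highest value at 0.33 (limma adjusted p = 0.37), followed by AT1G04300 at 0.30 (limma adjusted p = 0.36) and AT4G27880 at 0.28 (limma adjusted p = 0.46). AT5G43560, among the 3 brightest, had 0.14 and BPM3 had -0.15, with limma adjusted p of 0.711 and 0.725. One gene too dim to test, AT5G26280, singled out after its values were seen, had the ecotype direction opposite to that of ZW9. Its signals were 1.05 and 5.65 in wild type and fnr1 Columbia and 30.5 and 22.1 in wild type and fnr1 Ws. In Columbia its fnr1 signal was the higher, as in ZW9.

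**Figure D3:**
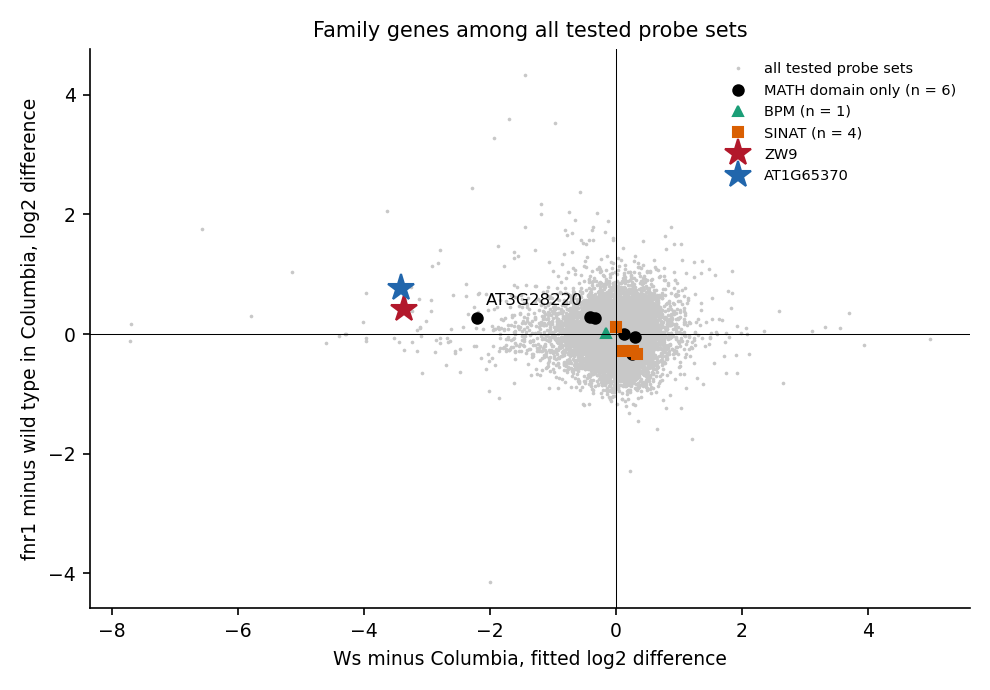
Fitted log2 difference of Ws minus Columbia (x axis, 2 arrays against 2) and log2 difference of fnr1 minus wild type in Columbia (y axis, 1 array against 1) for all 13648 tested probe sets (grey), with the 13 tested family genes marked by group and ZW9 and AT1G65370 as stars. The stars lie at -3.37 and -3.41 on the x axis, AT3G28220 at -2.20, and the other family genes within the grey cloud.

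Between genotypes limma called none of the 13 tested family genes over both ecotypes, and 1 of them, AT1G65370, had an unadjusted p under 0.05. In Columbia the difference of fnr1 minus wild type was above 0 in 6 of the 11 genes other than the members, against 47.6% of all tested probe sets, and none reached 1.5-fold. The median of the 11 was 0.01. It was 0.14 in the 6 genes with MATH domains alone, 4 of which were above 0, and -0.29 in the 4 SINAT genes. ZW9 at 0.42 and AT1G65370 at 0.77 lay above all of the 11 tested genes, the highest of which was AT4G01390 at 0.29. AT3G28220 and AT4G00780 both had 0.27. The lowest were AT3G17380 and AT2G41980, both at -0.33, and AT5G53360 at -0.29.

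Neighbouring genes could be followed only where the annotation names them, at 6 to 14 protein-coding genes from ZW9 and 1 to 16 from AT1G65370, and unnamed probe sets of closer genes were not analysed here. Of the nearest 3 genes on each side of ZW9 with a probe set, AT1G58220 and AT1G58230 were bright enough to test. They had fitted ecotype differences of 0.00 and -0.00 (limma adjusted p = 0.999 for both). These fits average opposite differences of Ws minus Columbia. AT1G58220 had -0.50 in wild type and 0.50 in fnr1, and AT1G58230 had -0.12 and 0.12. The other 4 were dim on every array, with deposited signals between 0.31 and 9.45, and ZW2, 6 protein-coding genes away, had 1.74 and 1.09 in Columbia and 6.08 and 6.45 in Ws for wild type and fnr1. The gene next to AT1G65370 with a probe set, the MADS-box gene AGL23, was also dim, at 0.44 and 12.5 in wild type and fnr1 Columbia and 2.30 and 4.35 in Ws.

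Of the other neighbours of AT1G65370, AT1G65490, 15 genes away, had a lower signal in Ws. The match of its probes to the Ws sequence was not tested. The deposited signals were 798 (wild type) and 1145 (fnr1) in Columbia, and 610 (wild type) and 531 (fnr1) in Ws. Its fitted ecotype difference was -0.93 (limma adjusted p = 0.000406), smaller than the -3.41 of AT1G65370. AT1G65280, AT1G65295, GLC and AT1G65500 had 0.22, -0.19, -0.02 and -0.33, with limma adjusted p from 0.543 to 0.978. The genotypes differed in direction for AT1G65295, at -0.67 in wild type and 0.29 in fnr1, and for GLC, at -0.22 and 0.18.

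**Figure D4:**
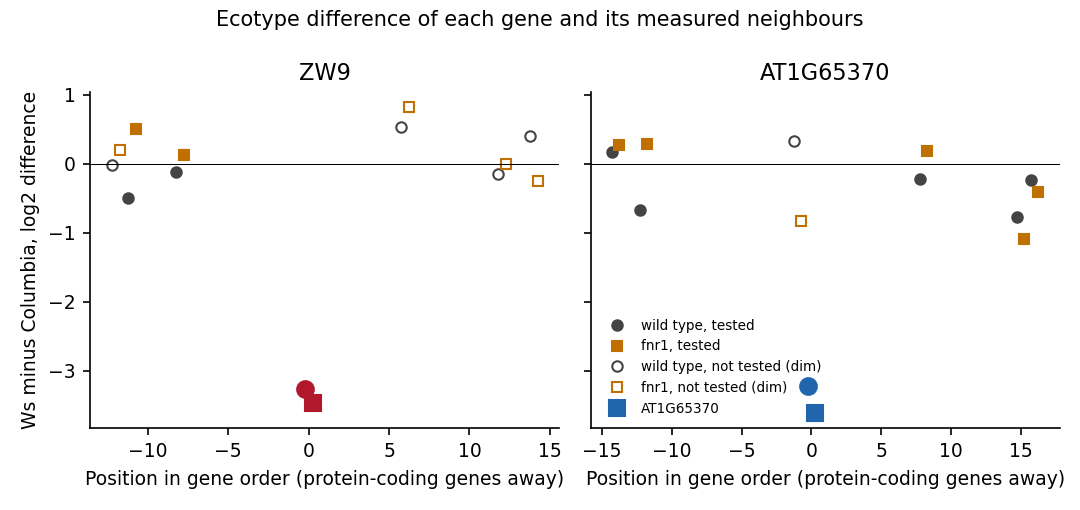
Log2 difference of Ws minus Columbia (y axis) for ZW9 (left) and AT1G65370 (right) and for the nearest 3 genes with a probe set on each side, that the annotation names, by their place in the order of protein-coding genes (x axis); circles are wild type and squares fnr1, 1 array against 1, and open symbols are probe sets too dim to test. The large coloured symbols of ZW9 and AT1G65370 lie between -3.22 and -3.61, below every neighbour shown.

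Likeness to the members was measured over the 4 arrays as the root mean square difference of log2 profiles, each centred on its own mean, over 7350 other tested probe sets with 1 gene. This measure describes the chosen pattern and was not tested. AT5G42250 was most like ZW9, at 0.07, with deposited signals of 90.4 (wild type) and 149 (fnr1) in Columbia and of 7.45 (wild type) and 9.91 (fnr1) in Ws. AT1G65370 came second at 0.14, and ZW9 was in turn the gene most like AT1G65370. The same other genes made up the 5 most alike for both members, namely AT5G42250, the histone H2B gene HTB11, AT1G63880 and AT3G43740, at up to 0.28 from ZW9 and 0.35 from AT1G65370. HTB11 differed by 0.10 in Columbia between fnr1 and wild type, AT1G63880 by 0.39 and AT3G43740 by 0.58.

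The members were last set beside other probe sets with a far lower signal in Ws, a group taken after the values were seen. Leaving out ZW9 and AT1G65370, 70 tested probe sets were fitted at least 4-fold lower in Ws. Their difference of fnr1 minus wild type in Columbia ran from -0.94 to 2.45 with a median of 0.08, and 20 of the 70 were at least as high as ZW9 and 9 at least as high as AT1G65370. At least 1.5-fold higher in fnr1 were 15 of the 70 (21.4%), and at least 1.5-fold lower were 4 (5.71%), against 4.25% and 3.99% of all tested probe sets. The fit that picked the group and the brightness filter both use the Columbia signals counted here. A high Columbia signal in either genotype thus helps a probe set into the group, and nothing is read from these shares. The 2 members lay within the range of that group.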

How the data were processed

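The intensity values deposited by the authors are linear MAS5 signals, as the submitters' processing notes name the tool, 1 for each array and probe set, from biotin-labelled cRNA of 3 µg of total RNA per the labels' protocols. Its version, its scaling target and any detection calls are not given in the sources used here.

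Of 22810 probe sets, 64 controls were dropped. The signals of each array were scaled to a common median of 26.5 and log2(signal + 5.78) was taken. The 13648 of 22746 probe sets whose mean reached the 40th percentile were tested in R 4.3.3 with limma 3.58.1, using additive terms for genotype and ecotype, a variance trend, 2-sided tests and Benjamini-Hochberg adjustment at 0.05. The model leaves 1 residual degree of freedom, with 15.7 prior degrees of freedom, and p-values cover no more than the spread between these 4 arrays, which may be technical. That residual is the disagreement of the genotype difference between the ecotypes, so array noise and a true difference in response cannot be told apart in it. The number of arrays limits the precision. A gene with several probe sets is given by the brightest, named through the TAIR10.1 gene table. A further 2 probe sets that list a family gene with others were not used. In simulated genotype differences over 13648 probe sets, the fit recovered 13 of 50 changed by a log2 size of 0.5, 42 of 50 by 1 and 50 of 50 by 2, and called 6 of 13448 unchanged ones. The simulation gave each probe set the prior variance of the fit and the same difference in both ecotypes. Recovery in the real data may therefore be lower.

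Named were the members, any other family gene called and the 3 family genes highest by signal. Also named were the 3 highest and 3 lowest by ecotype and by Columbia difference, the nearest 3 neighbours per side and the 5 genes most alike. The members and lists were chosen with earlier results of these data known.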

Additional observations from a re-analysis of the deposited data

How the results depend on the processing

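Over other scalings (deposited, trimmed mean, quantile), pseudocounts (1 and 16), no filter and no variance trend, 75 of 86 recomputed results were counted as unchanged. No difference changed sign. A tested difference was unchanged if it kept its direction and its side of the threshold. An untested one was unchanged if it moved by less than the spread between arrays. The 86 include counts of called probe sets, where a shift such as 1136 to 879 by ecotype with trimmed mean scaling was taken as unchanged. The settings for AT3G28220 were added after its values were seen. The genotype differences of ZW9 and AT1G65370 were not called by limma in any of these settings. The other results depended on the setting, and the cause was not tested unless given. The Columbia difference of ZW9 was 0.73 on the deposited scale, where the wild type Columbia array is dimmer. Pseudocounts of 1 and 16 moved the ecotype difference by construction, to -3.88 and -2.71 for ZW9 and to -4.11 and -2.63 for AT1G65370. By genotype limma called 25 probe sets, against 9 with trimmed mean scaling, 6 with no variance trend and 0 with no filter (1182 at an unadjusted p under 0.05). By ecotype it called 1136, against 477 on the deposited scale, 752 with no variance trend and 368 with no filter. Leaving out an array leaves no residual degree of freedom in the additive model, so the genotype estimate is then a value with no test, the difference within the ecotype that keeps both arrays: 0.22 to 0.42 for ZW9 and 0.39 to 0.77 for AT1G65370. The ecotype term sets fnr1 against wild type within each ecotype. No further pairing of replicates was possible because the labels give no replicate numbers and each combination has 1 array. The members' Ws signals, at percentiles 22.2 to 34.5 of their arrays, limit what can be said of a genotype difference there.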
